A study of Mus musculus with 6 samples.

Results

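Back skin of C57/BL mice was compared 2 days after cyclosporin A treatment with back skin taken 2 days after ethanol treatment. The comparison rests on the 2 day 2 arrays of a series of 6 dual-colour Agilent arrays, which holds 2 arrays each for days 2, 4 and 7. On every array cyclosporin A skin was labelled with Cy5 and ethanol skin with Cy3, so each array gave one ratio of cyclosporin A over ethanol per gene, and no array had the dyes swapped. The series design speaks of days after application. The labels give no dose, route, sex, age or hair cycle stage and do not say how many animals made up a sample. They call the arrays biological replicates, and the titles number them 1 and 2. P-values therefore measure the spread between arrays of the same day, pooled over all 6 arrays, which carries an unknown share of technical error. The difference in log2 ratio between replicates had an SD of 0.436 at day 2, against 0.342 at day 4 and 0.396 at day 7. The pooled spread is thus not that of day 2 alone.

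The immunosuppressant cyclosporin A forms a complex with cyclophilins that blocks calcineurin, the phosphatase that lets NFAT transcription factors enter the nucleus and switch on cytokine genes in T cells. In mouse skin the drug is also known to push resting hair follicles into growth, the phase called anagen, during which melanocytes make pigment and the matrix makes the hair shaft. Skin is a mixture of keratinocytes, fibroblasts, fat, muscle, vessels, nerve and immune cells. In such bulk samples fewer cells of a type and less RNA per cell cannot be told apart.

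After a filter on dim probes, 22050 genes had a ratio on at least 1 of the day 2 arrays, of which 22001 were measured on both. Of the 22051 genes kept over all days, 13480 carried a gene symbol and 8571 an accession only. Ratios below are on the log2 scale, cyclosporin A over ethanol, so that 1 is 2-fold higher and -1 is 2-fold lower in cyclosporin A skin, and levels are log2 channel intensities after normalization. The arrays were alike in brightness: the median Cy5 signal was 165 on replicate 1 and 176 on replicate 2, and the median Cy3 signal was 239 and 250. Of the probes, 66.3% and 68.8% were well above background in the cyclosporin A channel, against 45.7% and 48.6% in the ethanol channel. The 153 negative control spots read 24 and 23.5 units over local background in the cyclosporin A channel, against 124 and 129.5 in the ethanol channel. The constant added in the background correction pulls the ratios of dim genes towards 0. Skin markers were detected: 18 of 19 basal keratinocyte genes tested and 35 of 37 epidermal differentiation genes were well above background in both channels of both arrays. Genes tested had already passed the filter on dim probes, so these shares were partly fixed by it. All 32 ribosomal protein genes tested were also well above background there. Xist, which is made from the inactive X chromosome, was well above background in both channels of all 6 arrays, and none of 4 Y-linked genes was.

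No gene passed an adjusted p of 0.05 in limma at day 2 (0 of 22050, percent called 0, lowest adjusted p = 0.474). Before adjustment, 2113 genes (9.58%) had a p under 0.05, where 5% would be 1102, with 1487 higher in cyclosporin A skin (6.74%) and 626 lower (2.84%). This surplus over 5% was not seen among bright genes. When every array had to show a probe as bright in Cy5 and in Cy3, 681 of 13925 genes had an unadjusted limma p under 0.05. A fit to the 2 day 2 arrays alone gave 1252 of 22050. The main fit, run without the intensity-dependent (loess) step, gave another picture, since the ratio of Cy5 over Cy3 rose with intensity on every array. Before loess, the 5513 genes of lowest intensity had median ratios of -0.18 and -0.22 on the day 2 arrays, and the 5513 of highest intensity had 0.76 and 0.80. At days 4 and 7 these brightest genes had medians between 0.51 and 0.83 before loess, so the trend was not particular to day 2. With arrays centred only on the median of the genes tested, 5130 genes were called, 1692 higher and 3438 lower. Centred on the median of all spots instead, the genes tested had medians of 0.32 and 0.40, and directions there are read relative to that shift. A dye trend and a treatment effect of the same shape cannot be told apart with no dye swap, and the directions of 60 of the named genes and of the list medians were also checked under that centring.

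After loess the 2 arrays shared little across all genes. Pearson's r between the log2 ratios of replicate 1 and replicate 2 was 0.00 over the genes, given as a description since genes are not independent, against 0.42 for the 2 day 4 arrays and 0.59 for the 2 day 7 arrays. Replicate 1 correlated better with a day 7 array (r = 0.45) and replicate 2 with a day 4 array (r = 0.44) than with each other. Of the genes, 33.1% lay above 0 on both arrays, 21.9% below 0 on both, and 45% on opposite sides. The list counts below are read beside these shares. On the same side were 55.0% of genes, against 66.0% at day 4 and 67.0% at day 7. This agreement depended on the loess step. With arrays centred on the genes tested, r was 0.589 and 76.17% of genes were on the same side, which includes the intensity trend common to all 6 arrays. After loess it also differed by intensity: r was 0.45 among the 5513 dimmest genes and -0.19 among the 5513 brightest.

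Large ratios were seldom shared after loess. Replicate 1 had 303 genes past 2-fold and replicate 2 had 85, among genes measured on both. Of the 303, 89 (29.4%) had the same sign on replicate 2, and of the 85, 33 (38.8%) had the same sign on replicate 1. Only 3 genes passed 2-fold on both arrays in the same direction (0.0136%), all lower in cyclosporin A skin, while 9 passed it in opposite directions (0.0409%). In the scanner software's processed signals, which carry no added constant, 207 genes passed 2-fold on both arrays in the same direction and 37 in opposite ones, and 195 of the 207 were dim in a channel. At 1.5-fold, after loess, the counts were 60 in the same direction (0.273%), 28 higher and 32 lower, and 106 in opposite directions (0.482%). The difference between replicates had an SD of 0.325 in the cyclosporin A channel and 0.249 in the ethanol channel. At day 4 those SDs were 0.207 and 0.308, and at day 7 0.455 and 0.340.

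**Figure D1:**
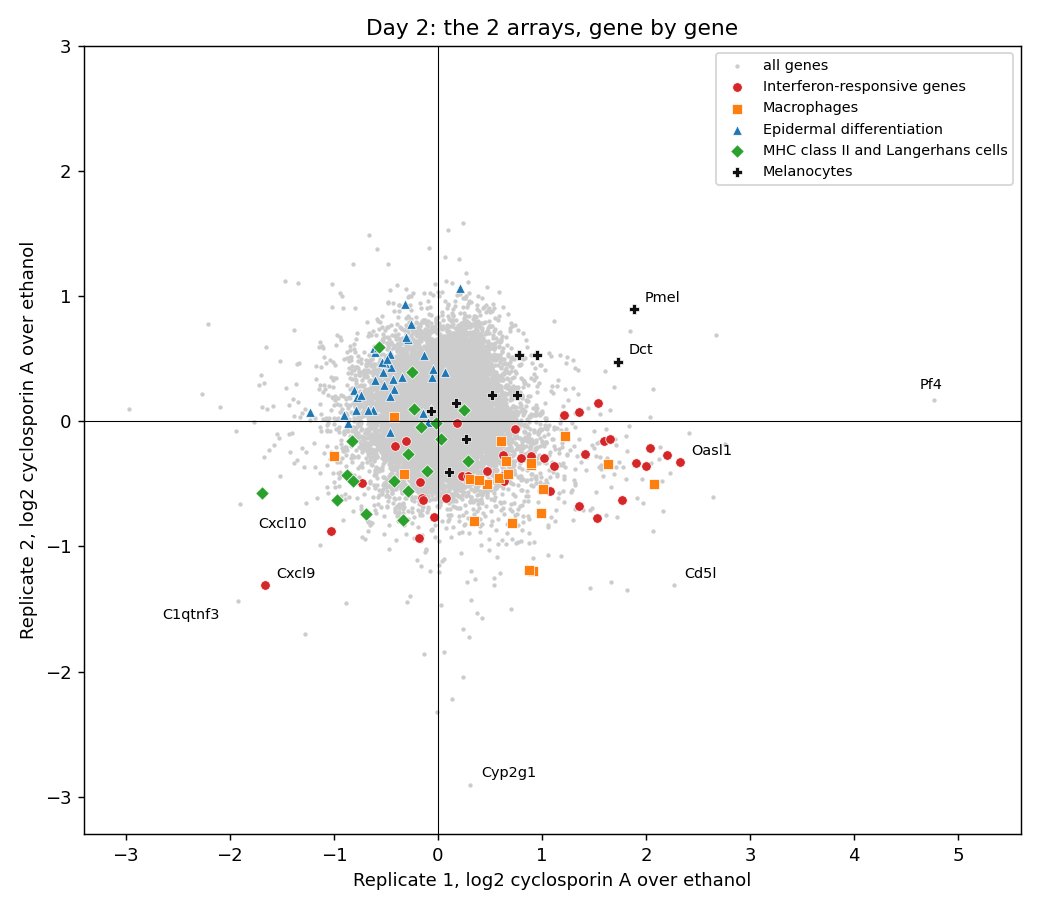
Each point is 1 gene at day 2, with its log2 ratio of cyclosporin A over ethanol on replicate 1 along the x axis and on replicate 2 along the y axis. Interferon-responsive genes and macrophage genes reach far right of 0 but lie mostly below 0 on replicate 2, epidermal differentiation genes lie at the upper left, MHC class II genes mostly in the lower left, and Pmel and Dct in the upper right.

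The 3 genes past 2-fold on both arrays were Cxcl9, C1qtnf3 and Pyy. Cxcl9, a chemokine that draws T cells through the receptor Cxcr3, had levels of 7.64 and 7.50 in cyclosporin A skin, against 9.30 and 8.81 in ethanol skin. The groups did not overlap, and the ratios were -1.66 and -1.31, a mean of -1.49 ± 0.16 (SE, 2.80-fold lower, limma adjusted p = 0.474). C1qtnf3, which encodes a secreted adipokine, had levels of 8.36 and 9.13 in cyclosporin A skin, against 10.28 and 10.57 in ethanol skin. Its ratios of -1.93 and -1.44 averaged -1.68 ± 0.25 (3.20-fold lower), and a second probe averaged -1.52. Pyy, known as an appetite-regulating gut hormone, had levels of 8.28 and 8.18, against 9.56 and 9.87, and ratios of -1.27 and -1.70. Its second probe averaged only -0.49, so the size of the Pyy difference depended on the probe. C1qtnf3 and Pyy had the same adjusted p as Cxcl9, and none of the 3 was called.

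Among the genes with the lowest unadjusted p, singled out after their values were seen, several more lay below 0 on both arrays. Mmp2, a gelatinase of the matrix, had levels of 12.01 and 11.86 in cyclosporin A skin, against 12.74 and 12.79 in ethanol skin, with ratios of -0.73 and -0.93. Gbp2b, a guanylate-binding protein, had ratios of -0.86 and -0.61, and Gbp5 had -0.70 and -0.94. The cytokine gene Il25 had -0.74 and -0.70, and Ephx1, a microsomal epoxide hydrolase, had -0.74 and -0.67. Each of these was lower in cyclosporin A skin on both arrays without passing the adjusted test. Other genes of low p lay above 0 on both arrays. Cetn4 had ratios of 0.82 and 0.71, and Cplx3 had 0.58 and 0.81 with a second probe at 0.19. Neither was well above background in ethanol skin on either array. Over all genes, those with an unadjusted limma p under 0.05 were more often higher (1487) than lower (626).

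Some immune genes lay below 0 on both arrays, although 14 of the 20 chemokine genes tested split between the arrays. Cxcl10, which shares its receptor with Cxcl9, had levels of 7.65 and 7.28 in cyclosporin A skin, against 8.68 and 8.16 in ethanol skin, and ratios of -1.03 and -0.88. Irf1, a transcription factor of the interferon gamma response, had ratios of -0.73 and -0.50 and a second probe at -0.66. Gbp2 had -0.17 and -0.49. Cxcl9, Cxcl10, Irf1 and Gbp2 had the 4 lowest p-values of the 38 interferon-responsive genes tested, and their limma adjusted p-values were between 0.474 and 0.503. With plain median centring, whose shift was 0.40 for the mean of all genes, the means of Irf1 and Gbp2 were 0.22 and 0.36, below that shift.

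MHC class II molecules present peptides to helper T cells on Langerhans cells and other antigen-presenting cells. Of 19 class II and Langerhans cell genes tested, 13 lay below 0 on both arrays and 1 above 0 on both (21.9% and 33.1% of all genes did so). An unadjusted p under 0.05 was reached by 7, all lower (2.84% of all genes), and none was called. The list medians were -0.29 on replicate 1 and -0.32 on replicate 2, against 0.02 and 0.05 for all genes, and stayed below 0 with arrays centred on the genes tested (-0.17 and -0.15). H2-Aa, a class II alpha chain, had levels of 13.05 and 12.59 in cyclosporin A skin, against 13.74 and 13.33 in ethanol skin. The groups did not overlap, the ratios were -0.69 and -0.74, and a second probe averaged -0.44. H2-Eb1, a class II beta chain, had ratios of -0.82 and -0.48, and H2-DMb2, part of the peptide loading complex, had -0.34 and -0.79. Ccl17, a chemokine of dendritic cells and Langerhans cells, had -0.97 and -0.63, with levels of 7.84 and 7.99 in cyclosporin A skin, against 8.81 and 8.62 in ethanol skin. With plain median centring the means of H2-Aa, H2-Eb1 and H2-DMb2 were 0.13, 0.24 and 0.11, above 0 but below the shift of all genes.

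MHC class I presentation followed the same pattern on the loess scale, but not on the other. Of 16 genes tested, 12 lay below 0 on both arrays (21.9% of all genes did so), and 8 had an unadjusted p under 0.05, all lower (2.84% of all genes). The list medians were -0.32 and -0.38 and turned to 0.22 and 0.13 with arrays centred on the genes tested. Tap1, a subunit of the peptide transporter, had ratios of -0.57 and -0.38. The class I heavy chain H2-T22 had -0.58 and -0.37 and a second probe at -0.58. For H2-Q7, with -0.37 and -0.49, and the loading factor Tapbp, with -0.32 and -0.37, the mean turned positive under that centring (0.22 and 0.15).

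T cell and B cell genes gave no common direction. Of 23 T cell genes tested, 5 lay above 0 and 8 below 0 on both arrays, none had an unadjusted p under 0.05, and the medians were -0.16 and -0.07. Cd2 had ratios of -0.21 and -0.22, and perforin (Prf1), a killing protein of cytotoxic cells, -0.27 and -0.24. Of 15 neutrophil and acute inflammation genes, 4 lay above 0 and 5 below 0 on both arrays, with medians near 0. Csf3r, the receptor for granulocyte colony-stimulating factor, had 0.51 and 0.17. S100a9, a calprotectin subunit of neutrophils, had levels of 10.60 and 10.72 in cyclosporin A skin, against 11.48 and 12.17 in ethanol skin, with ratios of -0.88 and -1.45. Of the mast cell list, 10 genes were tested, and Kit, the stem cell factor receptor, had 0.17 and 0.15. Cma1, a mast cell chymase, had an outlier spot on replicate 2 and rests on replicate 1 alone (0.34).

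No cyclophilin, calcineurin, NFAT, NFAT-driven or immediate early gene was called, as was none of all 22050 genes tested. Of 13 cyclophilin genes tested, 5 lay above 0 and 1 below 0 on both arrays (33.1% and 21.9% of all genes did so). The medians were 0.11 and 0.08, and Ppil3 had ratios of 0.45 and 0.15. Of 15 calcineurin and NFAT genes, Ppp3cc, a catalytic subunit, had 0.32 and 0.35, and Ppp3cb, another, had 0.40 and 0.28, while a second Ppp3cb probe averaged -0.03. Rcan1, a calcineurin inhibitor that is itself switched on by NFAT, had ratios of -0.18 and -0.21 and a mean that turned to 0.12 with arrays centred on the genes tested. Of 25 NFAT-driven and immediate early genes, 7 lay above 0 and 7 below 0 on both arrays. Dusp2, a phosphatase of activated immune cells, had -0.65 and -0.31, and Ier3 had -0.79 and -0.11. Il2, the T cell growth factor, was not well above background in ethanol skin on either array.

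Interferon-responsive genes differed between the arrays. Of 38 tested, 25 lay above 0 on replicate 1 and below 0 on replicate 2 (20.2% of all genes did so), and none lay the other way round. The list medians were 0.77 on replicate 1 and -0.36 on replicate 2, and 17 genes were past 2-fold higher on replicate 1 while none was on replicate 2. Past 2-fold lower on replicate 1 were Cxcl9 and Cxcl10. Centred on the genes tested, the medians were 1.07 and -0.29. The gap lay in the cyclosporin A samples: the median difference of replicate 1 minus replicate 2 was 1.00 in the cyclosporin A channel and -0.18 in the ethanol channel. Relative to each gene's mean over the 12 channels of the series, cyclosporin A skin of replicate 1 had the highest median level (0.59) and cyclosporin A skin of replicate 2 the lowest (-0.40), against -0.18 and -0.05 in day 2 ethanol skin.

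The members show how far this went. Isg15, a ubiquitin-like protein, had ratios of 2.00 on replicate 1 and -0.36 on replicate 2. Oasl1, an oligoadenylate synthetase-like protein, had levels of 10.78 and 8.51 in cyclosporin A skin, against 8.46 and 8.84 in ethanol skin. Cyclosporin A skin of replicate 1 stood alone, and the other 3 samples lay together. Ifi44l behaved alike, with 10.54 and 8.39 in cyclosporin A skin, against 8.31 and 8.81 in ethanol skin, and ratios of 2.23 and -0.42. Ifit1 and Ifit3, which bind foreign RNA, had 1.59 and 1.65 on replicate 1 and -0.16 and -0.14 on replicate 2.

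The promoters of these genes are shown because the list held both kinds of member, those split between arrays (Isg15, Ifit1) and those low on both (Cxcl9, Cxcl10). Each line is the 200 bases before the RefSeq transcription start in build GRCm38.p6, 5′ to 3′ along the gene, with matches to the ISRE core (GAAA, any 2 bases, GAAA) or the GAS core TTCNNNGAA on either strand in capitals. These are the core letters bound by interferon-activated factors.
Isg15, chr4:156200819-156201018, minus strand: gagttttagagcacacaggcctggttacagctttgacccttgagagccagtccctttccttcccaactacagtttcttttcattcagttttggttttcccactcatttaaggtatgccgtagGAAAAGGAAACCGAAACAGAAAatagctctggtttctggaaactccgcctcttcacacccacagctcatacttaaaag
Ifit1, chr19:34640689-34640888, plus strand: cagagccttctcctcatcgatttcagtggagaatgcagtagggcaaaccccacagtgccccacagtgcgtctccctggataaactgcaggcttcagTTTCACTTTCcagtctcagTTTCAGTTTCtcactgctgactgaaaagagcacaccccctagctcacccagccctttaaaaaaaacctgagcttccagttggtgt
Cxcl9, chr5:92328080-92328279, minus strand: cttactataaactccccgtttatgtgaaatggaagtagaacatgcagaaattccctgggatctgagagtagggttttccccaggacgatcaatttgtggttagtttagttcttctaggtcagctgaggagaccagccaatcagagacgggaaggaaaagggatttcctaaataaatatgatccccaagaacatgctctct
Cxcl10, chr5:92348890-92349089, minus strand: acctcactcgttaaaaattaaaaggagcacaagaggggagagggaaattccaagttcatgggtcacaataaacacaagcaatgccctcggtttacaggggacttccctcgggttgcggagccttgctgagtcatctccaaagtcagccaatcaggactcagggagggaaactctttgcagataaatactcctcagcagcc
Isg15 and Ifit1 were picked among split members that hold an ISRE core, so their matches were fixed by that choice. Isg15 held 3 overlapping ISRE cores and Ifit1 held 2. The windows of Cxcl9 and Cxcl10 held no match to either motif. RefSeq promoters were matched for 28 of the 38 genes, and 13 of them (46.4%) held an ISRE core, against 2.33% of all 27025 promoters. Among genes split between the arrays 8 of 19 held one, and among those below 0 on both arrays 4 of 7. The ISRE match therefore did not separate these members. The GAS core stood in 5 of the 28 (17.9%), against 5.62% of all promoters. It stood in 2 of the 19 split genes and in 3 of the 7 below 0 on both arrays, a difference that was not tested. Irf1, low on both arrays, held 1 GAS core, and its sequence is not shown. A match describes letters in the window and not binding. Bases outside these windows were not searched, so the lack of a match covers the 200 bases only.

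Macrophage genes lay on the same sides as the interferon-responsive genes. Of 21 tested, 18 lay above 0 on replicate 1 and below 0 on replicate 2 (20.2% of all genes did so). The medians were 0.67 and -0.45, and none lay above 0 on both. Complement C1qa had ratios of 0.91 and -1.20, C1qb 0.88 and -1.19, and Fcgr1, an antibody receptor, 2.08 and -0.50. All 21 were well above background in both channels of both arrays. The median level of the list was 0.50 and -0.29 in cyclosporin A skin, against -0.20 and 0.14 in ethanol skin, so here the ethanol samples differed too. The part of macrophage content in the interferon difference was not tested. The monocyte chemokines took the same side: Ccl2 had 1.72 and -0.37, Ccl7 1.91 and -0.61, Ccl8 1.52 and -0.56, and Ccl12 2.12 and -0.30. Ccl27a, a keratinocyte chemokine, had -0.82 and 0.26 instead.

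The dermal matrix split the same way. Of 28 fibroblast and collagen genes tested, 17 lay above 0 on replicate 1 and below 0 on replicate 2, with medians of 0.76 and -0.24, the second of which became 0.13 with arrays centred on the genes tested. Col1a1 and Col1a2, the chains of type I collagen, had 0.86 and 1.34 on replicate 1 and -0.15 and -0.28 on replicate 2. The other 2 Col1a1 probes averaged -0.31 and 0.03, below the brightest one at 0.35. Col5a3 had 1.74 and -0.33. Some matrix genes were shared between the arrays. Fbn1, the microfibril protein fibrillin, had levels of 12.74 and 11.26 in cyclosporin A skin, against 10.89 and 10.53 in ethanol skin, and ratios of 1.85 and 0.72. Tnxb, tenascin X, had -0.67 and -0.80, and Mmp11, a matrix metalloproteinase, had -1.16 and -0.61. Postn, periostin, had -0.39 and -0.48, a direction that turned with arrays centred on the genes tested (mean 0.11).

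Keratinocyte genes split in the opposite sense. Of 37 epidermal differentiation genes tested, 32 lay below 0 on replicate 1 and above 0 on replicate 2 (24.8% of all genes did so), and none lay the other way. The medians were -0.46 and 0.35, and -0.09 and 0.76 with arrays centred on the genes tested. Lor, the loricrin of the cornified envelope, had -0.26 and 0.78, Ivl, involucrin, -0.81 and 0.25, and Krt1, a keratin of the upper layers, -0.31 and 0.94. Krt10, the partner of Krt1, had 0.22 and 1.06, but a second probe averaged -0.11. Of 19 basal keratinocyte genes, 15 split the same way, with medians of -0.28 and 0.22, the first of which became 0.03 under that centring. Krt14 had -0.44 and 0.49. The 6 companion layer and activation keratins had medians of -0.72 and 0.43, and Krt6a had levels of 10.93 and 11.69 in cyclosporin A skin, against 11.79 and 11.21 in ethanol skin. Cyclosporin A skin of replicate 1 was the lowest sample and that of replicate 2 lay between the ethanol samples.

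**Figure D2:**
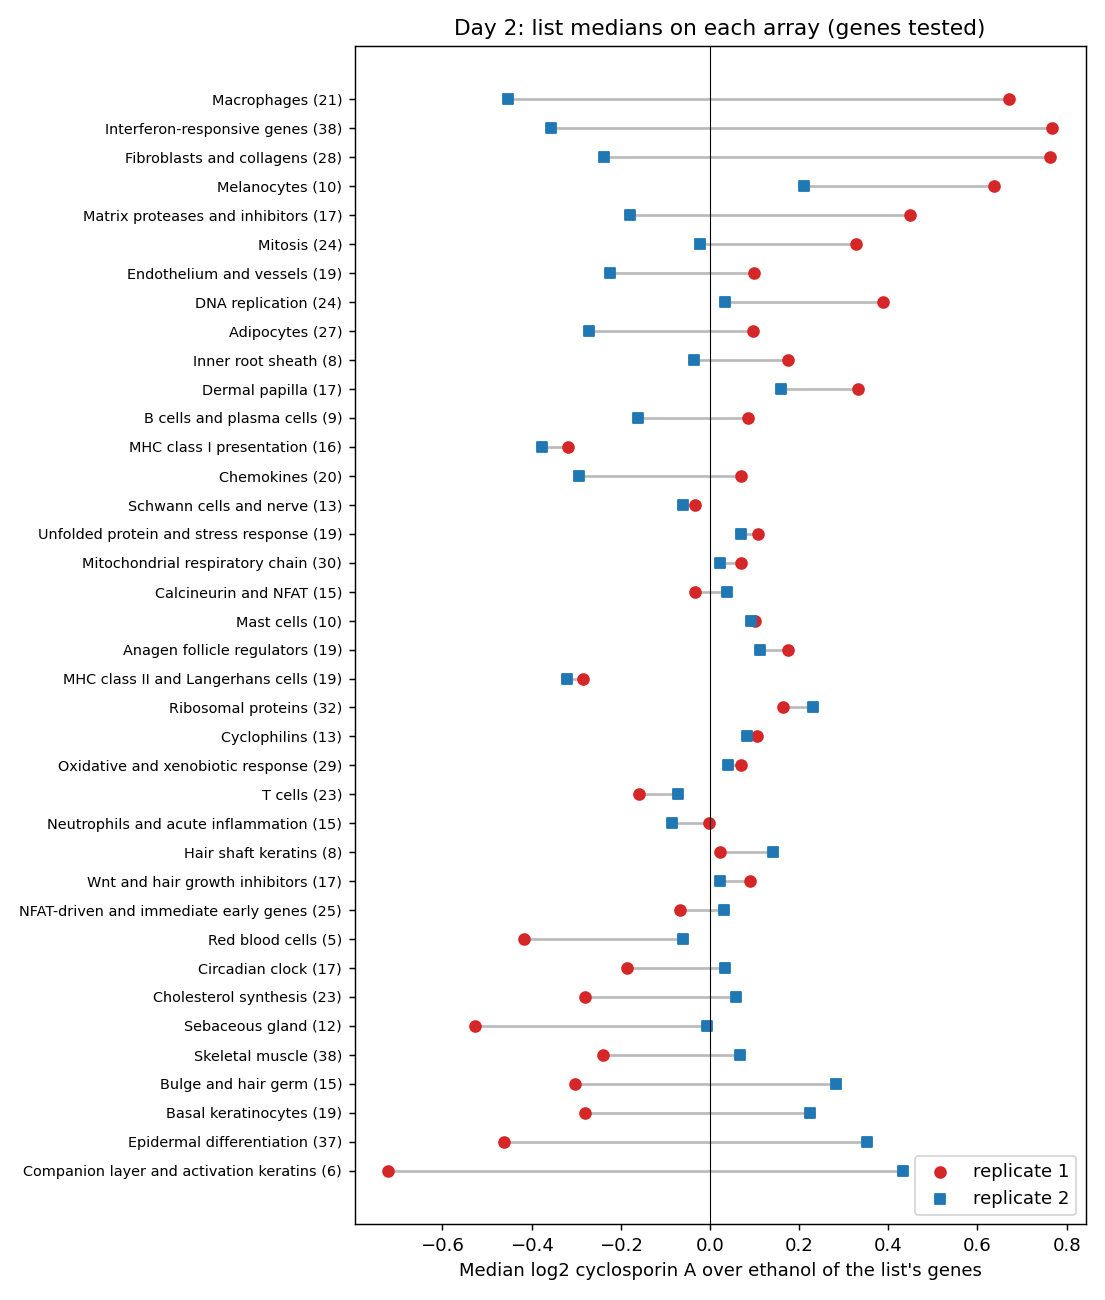
Each row is a gene list at day 2, with the number of genes tested in brackets, and the x axis gives the median log2 ratio of cyclosporin A over ethanol on replicate 1 (circles) and on replicate 2 (squares). Macrophage, interferon and collagen lists lie to the right on replicate 1 and to the left on replicate 2, the keratinocyte lists lie the other way, and the MHC lists have both points left of 0.

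**Figure D3:**
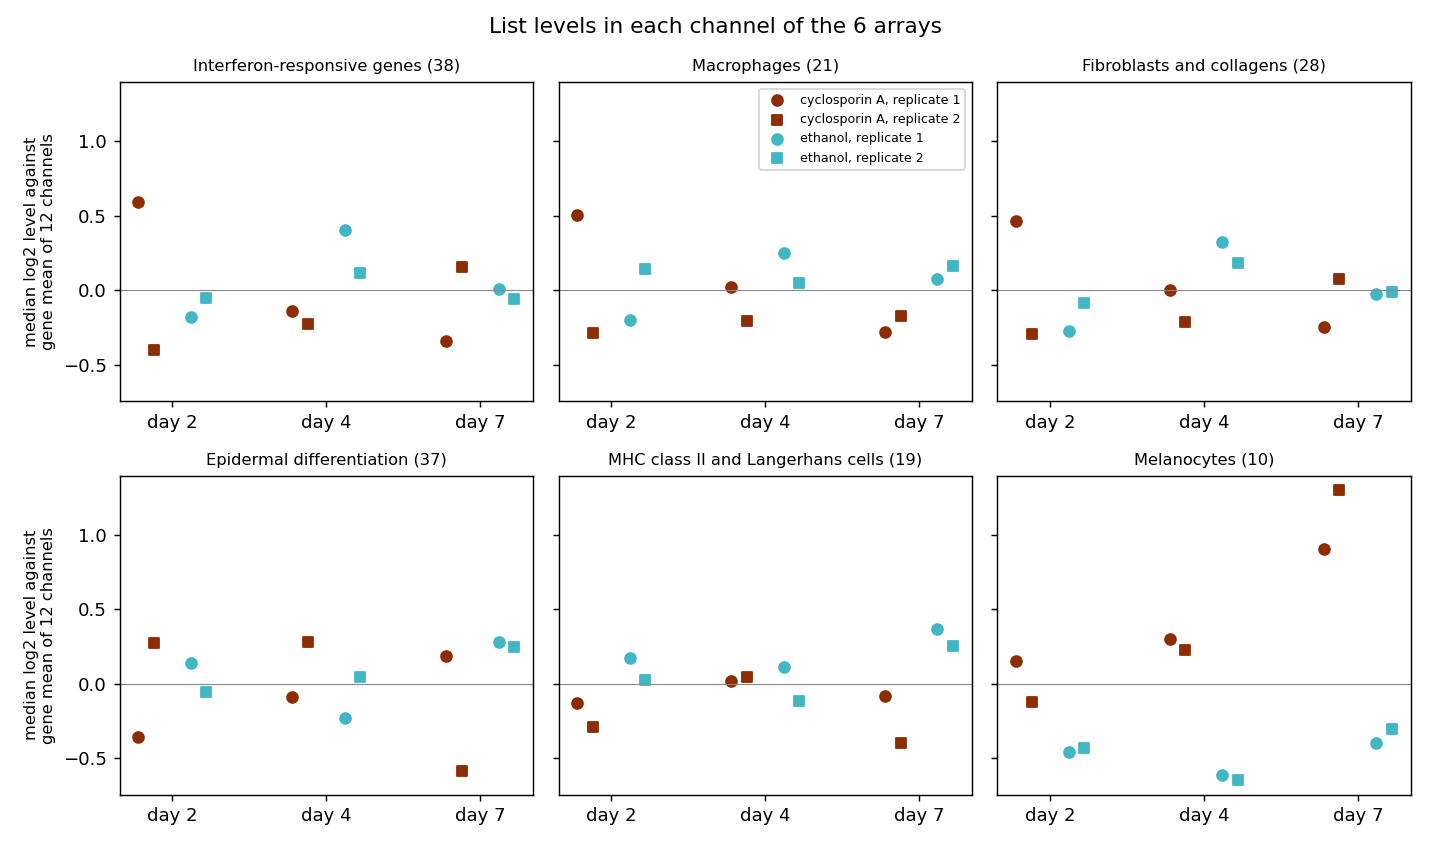
Points are the median level of a list in each of the 12 channels of the series, as log2 relative to each gene's own mean over the channels, with cyclosporin A left of ethanol at days 2, 4 and 7. At day 2 the interferon, macrophage and collagen lists are highest in cyclosporin A skin of replicate 1, and the melanocyte list lies above both ethanol samples in both cyclosporin A samples.

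The 10 genes with the largest difference between the arrays among those on opposite sides of 0 were Cd5l, Pla1a, Cyp2g1, Mest, Has2, Ccl6, Trem2, Oasl1, Ifi44l and Plac8. Cd5l, a protein secreted by macrophages, had levels of 11.10 and 9.41 in cyclosporin A skin, against 8.83 and 10.72 in ethanol skin, and ratios of 2.27 and -1.31. Both channels exchanged places between the arrays. Trem2, a lipid receptor of macrophages, had 12.08 and 11.02, against 10.62 and 12.35, and ratios of 1.46 and -1.33, while its second probe averaged -0.02. Mest, an imprinted gene active in growing fat, had 10.51 and 8.59, against 8.69 and 9.94, and ratios of 1.82 and -1.35. In these 3 genes the ethanol samples differed from each other by over 1 log2 unit as well.

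In Pla1a and Plac8 too the ethanol samples differed by over 1 log2 unit, with 10.87 and 12.17 for Pla1a and 11.52 and 12.55 for Plac8. In Has2, Oasl1, Ifi44l and Cyp2g1, 1 cyclosporin A sample stood apart instead. Has2, a hyaluronan synthase, had levels of 11.16 and 8.59 in cyclosporin A skin, against 8.40 and 8.77 in ethanol skin, and ratios of 2.76 and -0.18. Cyclosporin A skin of replicate 1 was the high sample. For Cyp2g1, a cytochrome P450, cyclosporin A skin of replicate 2 was the low sample, with 12.31 and 9.44 in cyclosporin A skin, against 12 and 12.35 in ethanol skin. Its second probe averaged -0.55 where the brighter one averaged -1.30. Pla1a, a phospholipase, had ratios of 2.64 and -0.61, the chemokine Ccl6 2.16 and -0.72, and Plac8 2.16 and -0.48. Passing 2-fold in opposite directions were also Fabp3 and Ankrd2, which muscle is known to make, with -1.35 and 1.11 and with -1.47 and 1.12, and Syt10, a synaptotagmin, with 1.06 and -1.07.

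**Figure D4:**
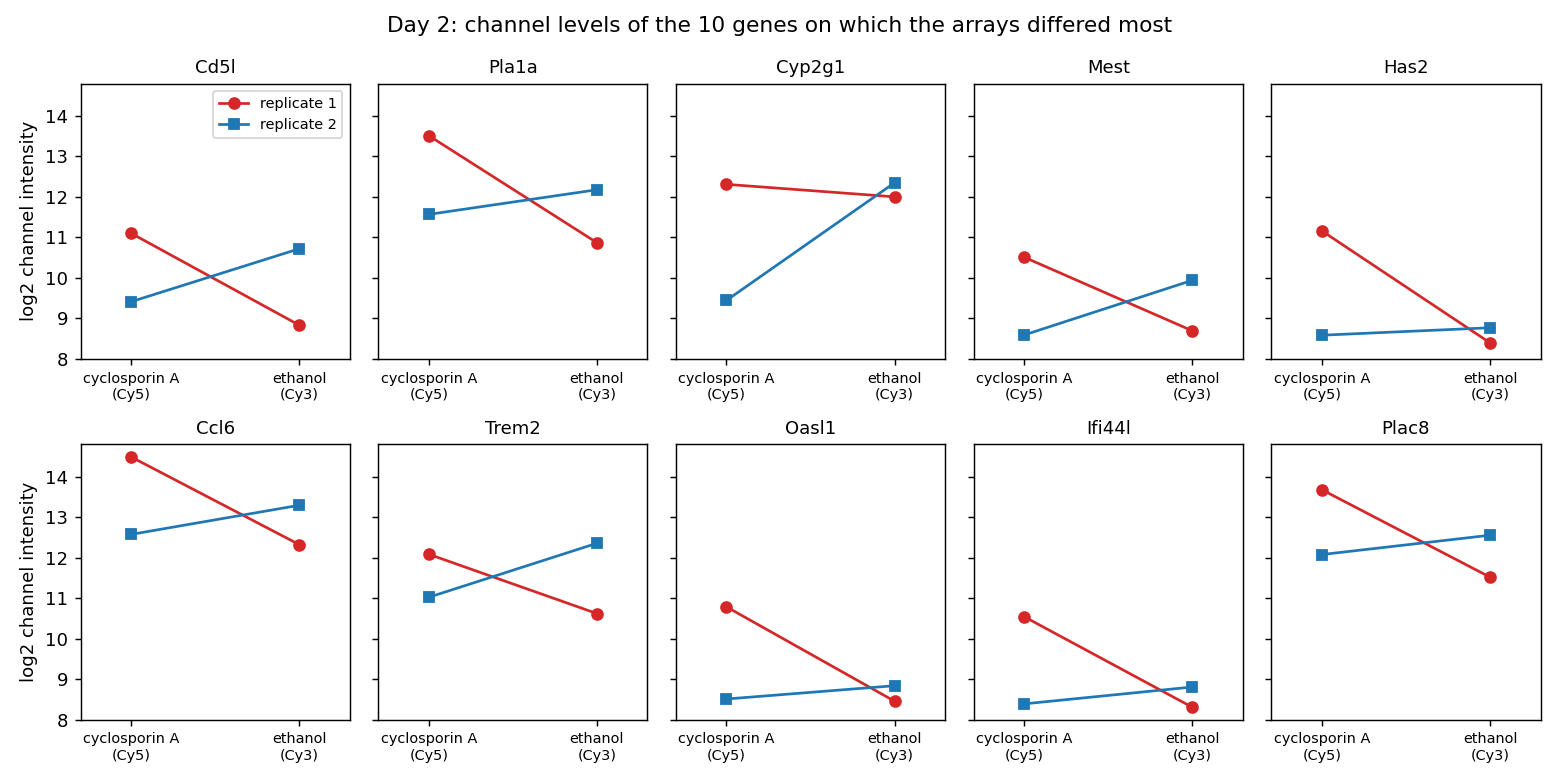
Lines join the log2 channel intensity of cyclosporin A (left) and ethanol (right) on replicate 1 (circles) and replicate 2 (squares) at day 2, for the 10 genes on which the arrays differed most with opposite signs. The lines of the 2 replicates cross in every panel, and 1 cyclosporin A sample stands apart for Has2, Oasl1, Ifi44l and Cyp2g1.

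Pigment genes were among those that lay above 0 on both arrays. Of 10 melanocyte genes tested, 7 lay above 0 on both arrays and none below 0 on both (33.1% and 21.9% of all genes did so). An unadjusted p under 0.05 was reached by 6, all higher (6.74% of all genes). Of the 10, only 4 were well above background in both channels of both arrays. The medians were 0.64 on replicate 1 and 0.21 on replicate 2, the second of which became -0.11 with arrays centred on the genes tested. Pmel, the fibril protein of melanosomes, had levels of 10.03 and 9.04 in cyclosporin A skin, against 8.15 and 8.14 in ethanol skin, and ratios of 1.89 and 0.90. Both cyclosporin A samples lay above both ethanol samples, and the mean was 1.39 ± 0.24 (SE, 2.63-fold higher, limma adjusted p = 0.474). Dct, a melanin synthesis enzyme, had 13.70 and 12.88, against 11.97 and 12.40, with ratios of 1.73 and 0.48 and a second probe at 1.04. Tyrp1, another such enzyme, had 0.96 and 0.53. Slc24a5, an ion exchanger of melanosomes, was not well above background in ethanol skin on either array, and had levels of 7.66 and 7.35 in cyclosporin A skin, against 6.88 and 6.82 in ethanol skin.

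Among the other follicle lists, 7 of 8 hair shaft keratins and 7 of 8 inner root sheath genes were not well above background in every channel at day 2. Of 17 dermal papilla genes tested, 9 lay above 0 on both arrays and 1 below 0 on both. Their medians were 0.33 and 0.16, the second of which became -0.15 with arrays centred on the genes tested. Only 10 of the 17 were well above background in every channel at day 2. Keeping only probes bright in both channels gave medians of 0.39 and -0.007. Alpl, an alkaline phosphatase used to mark the dermal papilla, had levels of 9.55 and 8.74 in cyclosporin A skin, against 7.67 and 7.85 in ethanol skin, and ratios of 1.88 and 0.89. Its groups did not overlap and its mean was 1.39 ± 0.26. Inhba, an activin subunit, had 0.62 and 0.55, and the Wnt receptor ligand Ndp had 0.55 and 0.59. Of 19 anagen regulators, 12 lay above 0 on both arrays. Their medians of 0.18 and 0.11 turned to -0.09 and -0.23 with arrays centred on the genes tested. Only 9 of the 19 were well above background in every channel at day 2. With the bright probes alone the medians were 0.04 and 0.01, so the lean above 0 rested largely on dim genes. Hoxc13, a transcription factor of the hair matrix, had 0.46 and 0.46 but was not well above background in ethanol skin on either array. Msx2, another such factor, had 0.32 and 0.46. The means of Hoxc13 and Msx2 were below 0 with arrays centred on the genes tested (-0.36 and -0.02). Among the hair shaft keratins, Krt35 had 0.98 and 0.45.

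Regulators that hold follicles at rest gave no common direction, with 6 of 17 above 0 and 2 below 0 on both arrays (33.1% and 21.9% of all genes). Fgf5, which ends hair growth in mice, was not well above background in ethanol skin, and had ratios of 0.22 and 0.71, with a mean that turned to -0.19 with arrays centred on the genes tested. Dkk3 and Dkk2, of the Dickkopf family of secreted proteins, had -0.66 and -0.27 and had -0.59 and -0.23. Cd34, found on bulge stem cells and on vessels, had levels of 15.92 and 15.17 in cyclosporin A skin, against 14.83 and 14.89 in ethanol skin. Its ratios were 1.09 and 0.28, while 7 of 15 bulge and hair germ genes split with replicate 1 below 0.

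Cell cycle genes were mostly above 0 on replicate 1 and near 0 on replicate 2. Of 24 DNA replication genes, 13 lay above 0 on both arrays and none below 0 on both (33.1% and 21.9% of all genes did so). The medians of 0.39 and 0.03 stayed above 0 with arrays centred on the genes tested (0.65 and 0.20). Pcna, the sliding clamp of replication, had levels of 13.51 and 13.03 in cyclosporin A skin, against 12.59 and 12.69 in ethanol skin, with ratios of 0.92 and 0.33. Rrm2, a ribonucleotide reductase subunit, had 0.37 and 0.46. Of 24 mitosis genes, 13 lay above 0 on replicate 1 and below 0 on replicate 2, with medians of 0.33 and -0.02. Of 32 ribosomal protein genes, 18 lay above 0 and 8 below 0 on both arrays (33.1% and 21.9% of all genes did so). Of the 32, 8 had an unadjusted p under 0.05, all higher (6.74% of all genes). Their medians were 0.16 and 0.23 after loess, and 0.87 and 0.96 with arrays centred on the genes tested. On the processed signals they were 0.04 and 0.05, against 0.02 and 0.06 for all genes. Rps23 had 0.54 and 0.53, and Rps3 had 0.42 and 0.43 with a second probe at -0.34.

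Lipid and muscle genes held members on both sides. Cyp2e1, a cytochrome P450, had levels of 11.55 and 11.36 in cyclosporin A skin, against 12.67 and 12.35 in ethanol skin, with ratios of -1.13 and -0.99. Of 27 adipocyte genes, 13 lay above 0 on replicate 1 and below 0 on replicate 2, 3 lay above 0 and 8 below 0 on both arrays, and the medians were 0.10 and -0.27, the second of which became 0.17 with arrays centred on the genes tested. Cebpa, a transcription factor of fat cells, had -0.67 and -0.88 and a second probe at -0.45. Of 23 cholesterol synthesis genes, 12 lay below 0 on replicate 1 and above 0 on replicate 2 and 9 below 0 on both. The enzymes Mvk and Fdft1 had -0.28 and -0.43 and had -0.60 and -0.26, and a second Fdft1 probe averaged 0.08. Of 38 skeletal muscle genes, 11 lay above 0 and 10 below 0 on both arrays. Tnnc2, the fast muscle troponin C, had 0.45 and 0.70, while Tpm2, a tropomyosin, had -0.95 and -0.51 and Des, desmin, had -0.64 and -0.35. Of 19 endothelial and vessel genes, 3 lay above 0 and 8 below 0 on both arrays, with medians of 0.10 and -0.22. Lyve1, a receptor of lymphatic vessels and some macrophages, had levels of 12.87 and 11.25, against 10.20 and 10.56, with ratios of 2.68 and 0.69. In nerve, Cadm4 and Prx, which myelinating cells make, had -0.33 and -0.69 and had -0.48 and -0.63.

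Against day 4, day 2 did not differ in any gene after adjustment (0 of 22050, percent called 0, lowest adjusted p = 0.999, limma), and 486 genes had an unadjusted p under 0.05. The arrays of days 2 and 4 lay on one slide and those of day 7 on another, so slide and day cannot be told apart for day 7. Against day 7, 56 genes were called, all lower at day 2 (0.254% of 22049), and none was higher (percent called 0). Of the 56, 38 carried a symbol, and they included 6 of the 8 hair shaft keratins and 5 of the 8 inner root sheath genes. The 5 largest were Krt71, Krt27 and Krt25, keratins of the inner root sheath, Krt33a, a hair shaft keratin, and Fbp1, a gluconeogenic enzyme.

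Krt71 had ratios of 0.26 and 0.29 at day 2, 1.82 and 2.26 at day 4, and 6.24 and 6.12 at day 7, and the day 2 minus day 7 difference was -5.91 ± 0.19 (SE, limma adjusted p = 0.000247). Krt27 had 0.33 and -0.34 at day 2, 0.54 and 0.87 at day 4, and 5.46 and 5.99 at day 7, a difference of -5.72 ± 0.29 (adjusted p = 0.000996). At day 2 Krt71, Krt27, Krt33a and Krt25 were not well above background in ethanol skin on either array. Their day 2 ratios therefore compare signals near background. Fbp1 had 0.03 and -0.17 at day 2 and 5.20 and 4.86 at day 7.

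The genes shared by the day 2 arrays were also followed over time, as a description. Cxcl9 had -1.66 and -1.31 at day 2, -1.28 and -1.48 at day 4, and -0.60 and -1.08 at day 7, below 0 on all 6 arrays. C1qtnf3 was likewise below 0 throughout, with -1.44 and -1.45 at day 4 and -0.92 and -1.96 at day 7. Pyy reached -0.17 and 0.09 at day 7. Pmel had 2.10 and 2.16 at day 4 and 2.47 and 3.0 at day 7, above 0 on all 6 arrays, and Alpl was above 0 on all 6 arrays too. Pf4, a platelet and megakaryocyte chemokine singled out after its values were seen, had 4.77 and 0.17 at day 2, -3.55 and -2.85 at day 4, and 1.58 and 0.66 at day 7. Its day 2 arrays differed from each other by more than any of the 10 genes above, on the same side of 0.

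**Figure D5:**
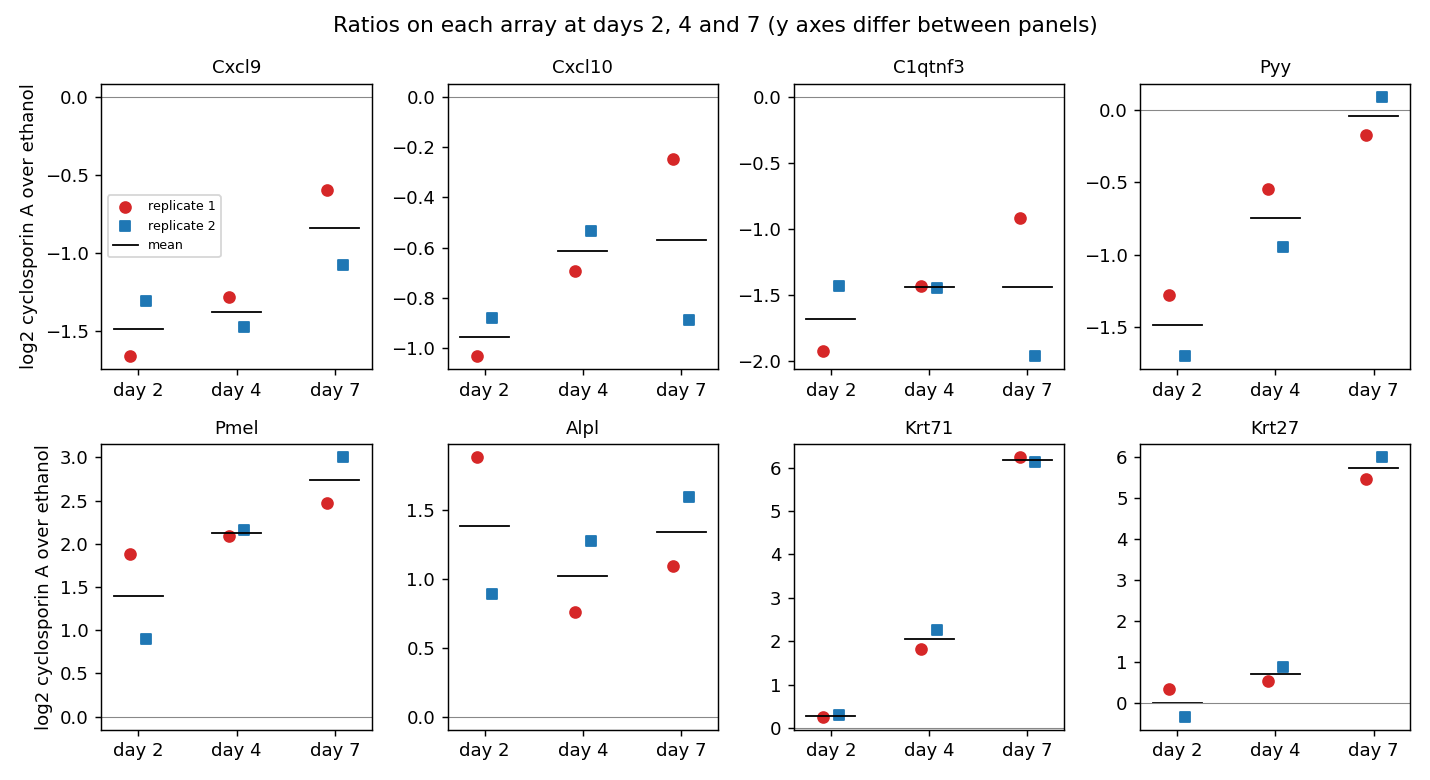
Points are the log2 ratio of cyclosporin A over ethanol on replicate 1 (circles) and replicate 2 (squares) at days 2, 4 and 7, with a line at the mean, and each panel has its own y axis. Cxcl9 and C1qtnf3 are below 0 and Pmel and Alpl above 0 on all 6 arrays, and Krt71 and Krt27 stay near 0 at day 2 and pass 4 at day 7.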

How the data were processed

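The deposited arrays were 6, 2 per day, each with cyclosporin A skin in Cy5 and ethanol skin in Cy3 per the labels. Per the file headers, the authors' deposited intensity values are spot and local background signals from Agilent Feature Extraction 9.1. The deposited log10 ratio of processed Cy5 over Cy3 comes from the same software, and the deposited value table was identical to it.
Median spot intensities were background-corrected (normexp, offset 50) and loess-normalized array by array (limma 3.58.1, R 4.3.3). Control spots had weight 0 and outlier spots were left out. A probe was kept where, for some day, both arrays had it well above background in the Cy5 or the Cy3 channel (27947 of 41174), and the brightest probe stood for a gene. Log2 ratios, computed here from the deposited intensities, were fitted with 1 mean per day over all 6 arrays (lmFit, eBayes), with Benjamini-Hochberg adjustment over all genes and a threshold of 0.05. The 49 genes with 1 outlier spot at day 2 rest on 1 array. Channel levels came from the loess ratios after Aquantile scaling between arrays. For a gene whose ethanol signal was not well above background on either day 2 array, only levels or ratios are given, which compare signals near background. Probe names were updated through the RefSeq GRCm38.p6 gene table, which named 23018 probes and left 18156 unnamed.
Named genes were those past 2-fold on both arrays, the 4 of lowest p in each of 39 lists (834 genes), the 10 of largest difference between arrays with opposite signs, and the 5 largest called differences between days. The other examples were chosen after their values were seen, among them Gbp2b, Gbp5, Il25, Ephx1, Cetn4, Cplx3, Isg15, Ifit1, Ifit3, C1qa, C1qb, Fcgr1, Ccl2, Ccl7, Ccl8, Ccl12, Ccl27a, Col1a1, Col1a2, Col5a3, Lor, Ivl, Krt1, Krt14 and Pf4. The lists and the comparison were chosen with earlier results of these data known. The fit was also run on simulated data drawn with the same spread on every day and no intensity trend. That run therefore does not bear on the disagreement of the day 2 arrays or on the choice of centring. The number of arrays limits the precision.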

Additional observations from a re-analysis of the deposited data

Results flagged for a closer look

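Day 2 differed from day 7 in 56 genes by limma's test of the difference itself, all lower at day 2. Among the named ones the day 2 minus day 7 difference in log2 ratio was -5.91 for Krt71, -5.72 for Krt27, -5.42 for Krt33a, -5.1 for Fbp1 and -4.95 for Krt25. Slide and day cannot be told apart here. Krt71, Krt27, Krt33a and Krt25 were not well above background in ethanol skin at day 2. Krt25 passed the filter on dim probes only through a later day.

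Several genes and lists had both day 2 arrays on one side of 0 and both arrays of a later day on the other. For Ccl19 the day 2 ratios were -0.99 and -0.29 and the day 4 ratios 0.70 and 0.80, a difference of -1.39. For Ccl17 the day 4 ratios were 0.14 and 0.73, a difference of -1.24. Dusp2 differed from day 4 by -0.96 and from day 7 by -0.98, Mvd from day 4 by -0.69 and Cxcl14 from day 4 by 0.46. Cd34 differed from day 7 by 0.9 and Tnnc2 from day 7 by 0.92. None of these gene differences was called by limma. The list medians differed from day 4 by -0.16 for T cells and by -0.11 for Schwann cells and nerve, and from day 7 by -0.88 for red blood cells and by 0.12 for the unfolded protein response. The list differences were not tested.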

How the results depend on the processing

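Centring decided the day 2 result. With median centring in place of loess, limma called 8615 genes (7945 higher, 670 lower), against 0 after loess. With arrays centred on the genes tested, an alternative chosen after seeing the data, it called 5130 (1692 higher, 3438 lower). A dye trend and a treatment effect cannot be told apart here. Genes on the same side made up 84.73% and 76.17% under these centrings, against 54.98% after loess, with r of 0.589 under both. Lists with medians on opposite sides numbered 2 under median centring, against 19 after loess. Median centring put the medians of the genes tested at 0.32 and 0.40, so that count is read relative to this shift. With arrays centred on the genes tested, the interferon (1.07 and -0.29), macrophage (1.10 and -0.06) and epidermal differentiation lists (-0.09 and 0.76) still lay on opposite sides. The basal keratinocyte and the fibroblast and collagen lists did not. With only probes well above background in both channels, 48.57% were on the same side and r was -0.137; on processed signals r was 0.105. Means turned positive under median centring for Irf1 (0.224), Gbp2 (0.359), H2-Aa (0.132), H2-Eb1 (0.236), H2-DMb2 (0.113), Tap1 (0.00033), Tapbp (0.515), H2-T22 (0.346), H2-Q7 (0.586), Ccl19 (0.192), Tnxb (0.036), Postn (0.468), Fmod (0.0331), Tpm2 (0.235), Des (0.279), Rcan1 (0.48), Dusp2 (0.122), Ier3 (0.172), Mvk (0.226), Fdft1 (0.3), Mvd (0.189) and Dkk2 (0.229). With arrays centred on the genes tested, signs turned for Tapbp (0.153), H2-Q7 (0.223), Postn (0.106), Rcan1 (0.117), Hoxc13 (-0.362), Msx2 (-0.0238) and Fgf5 (-0.186). Leaving out 1 array gave 0 to 1 calls at day 2 and 0 to 1 between days 2 and 4; the single calls came without day 2 replicate 2 and were AK042889 (-2.97, limma adjusted p = 0.0439) and Pf4 (7.97, adjusted p = 0.0389). Between days 2 and 7 the 56 calls became 106 with arrays centred on the genes tested, 11 with probes bright in both channels, and 27 to 82 with 1 array left out (28 without either day 2 array, 27 without either day 4 array). The replicate block gave 0 calls at day 2 and 37 between days 2 and 7; the correlations of same-numbered deviations were 0.004, -0.281 and -0.022, so the numbers were not taken as pairs.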
